A study of Homo sapiens with 2 samples.

Results

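The TIMM and TOMM genes encode the translocases that carry proteins into mitochondria. They were taken here as every row of the deposited tables whose symbol starts with TIMM or TOMM followed by a digit and holds no hyphen, which gave 24 genes of 26255 rows. The tumours studied grew from HT-29, a human colon cancer line in long use. The cells had been grown in complete medium and placed under the skin of female NOD SCID mice, which were 5 weeks old and lack T and B cells but keep other host cells. One group was then kept on normal food (the normal diet) and the other on food lacking methionine, tryptophan and niacin (the depleted diet). Rearing lasted 2 weeks according to the design text, which also speaks of 3 weeks. Each diet had 1 library, so every difference below is between 2 libraries, no value has a replicate check, and the diet and the tumour cannot be told apart. The sources used here do not give how many tumours went into a library.

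Expression is given in FPKM, in which the fragments of a gene are divided by transcript length and library depth, so levels compare genes per length. Where a pair of values is given, the normal diet comes first. From the steps between low values, the libraries held about 7810000 fragments on the normal diet and 7580000 on the depleted diet. Of 10 markers of colon epithelium all were measured, with summed levels of 8473 and 7900 FPKM. KRT8 (3849 and 3313 FPKM) and KRT18 (2076 and 2334 FPKM) gave most of these sums. The lowest of the 10 were CDX1 (5.91 and 5.97 FPKM) and CDX2 (5.14 and 4.92 FPKM). The summed levels of human markers were 5.16 and 4.74 FPKM for fibroblasts (7 markers, with DCN at 0 in both libraries) and 27.2 and 24.0 FPKM for macrophages and neutrophils (7 markers, nearly all of it CD68, with CD163 and S100A8 at 0). They were under 2 FPKM each for endothelium (5), lymphocytes (5), skeletal muscle (5) and adipocytes (4). The host's cells are mouse cells, and their part in the values below was not tested. In such a bulk library, fewer cells of a type and less RNA per cell cannot be told apart.

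Nearly all mitochondrial proteins are made in the cytosol and enter through the TOM complex of the outer membrane. Its receptors bind the precursors and its channel, TOMM40, lets them through. From there the TIM23 complex threads proteins with a presequence into the inner membrane and the matrix, driven by a motor in the matrix. The TIM22 complex inserts carrier proteins into the inner membrane, and the small TIM chaperones escort these carriers across the space between the membranes. Tumour cells that divide fast need import to build new mitochondria.

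Summed RNA of the import genes was at nearly the same level in both libraries. The 24 genes together gave 1169 and 1162 FPKM, or 0.208% and 0.214% of all FPKM. TOMM20L, with a mean of 0.784 FPKM, was the 1 gene under the minimum mean of 1 FPKM, so 23 were compared. The ratio used was log2((depleted + 1)/(normal + 1)), called the log2 ratio, where the 1 FPKM added to each value understates the difference of low genes. Of the 23 genes, 14 (60.9%) were higher on the depleted diet, against 49.4% of the 12414 features tested, and 9 were lower, against 50.6%. The median log2 ratio was 0.03, beside a median of -0.003 over all features tested, and 12 genes lay within 0.1 of 0. Past a ratio of 5 to 4, a log2 ratio of 0.32 either way, 0 genes were higher and 1 was lower, where 6.94% and 7.15% of all features were. None of the 23 was past 2-fold, against 0.524% of all features upwards and 0.371% downwards. With 23 genes, these counts are near the shares of all features and say nothing particular about the import genes.

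**Figure D1:**
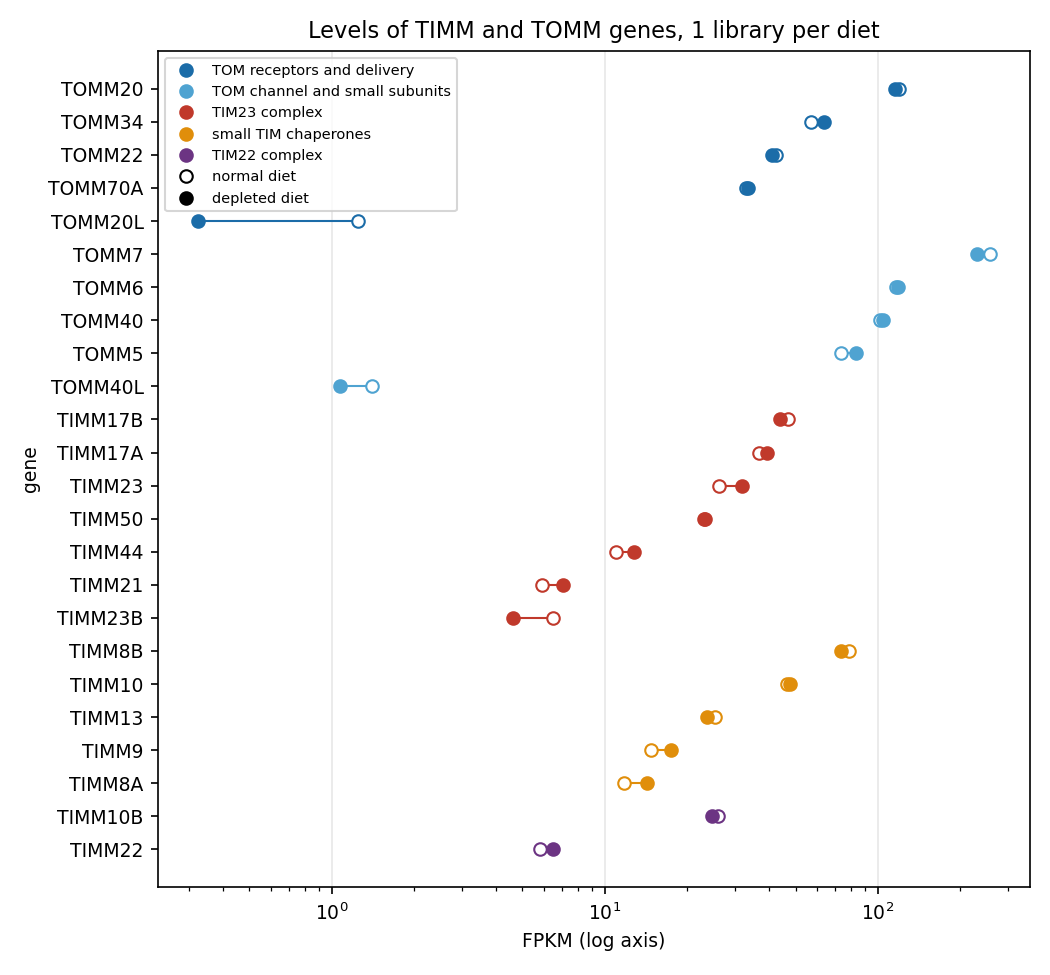
FPKM of each of the 24 genes (log axis) in the normal-diet library (open circles) and the depleted-diet library (filled circles), coloured by role. Levels run from 0.324 FPKM for TOMM20L on the depleted diet to 258 FPKM for TOMM7 on the normal diet. For most genes the circles touch, and those of TOMM20L lie farthest apart.

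Counting error was estimated from the number of fragments behind each value, with transcript lengths of GENCODE release 29. Of the 24 genes, 2 had a ratio outside the 95% range of counting error, TOMM34 and TIMM23, against 24.0% of 11009 features with a length. With the shortest transcript of each gene in place of the median one, the count was again 2, against 17.8% of features. Counting error leaves out the variation between tumours, so it is a lower limit on the error.

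Receptors and delivery factors of the outer membrane were close to level between the diets. TOMM20, the receptor that recognises presequences, was 119 and 116 FPKM (log2 ratio -0.05), and its ratio was just above 0, at 0.002, once both libraries were scaled to a common sum of FPKM. TOMM22, the central receptor that also holds the complex together, was 42.4 and 40.8 FPKM (-0.05). TOMM70A, the receptor for carriers and other precursors brought by cytosolic chaperones, was 32.9 and 33.5 FPKM (0.03). These 3 receptors thus differed by less than their counting error. TOMM34, a cytosolic protein that binds HSP70 and HSP90 and is thought to hand precursors to the receptors, was 57.1 and 63.3 FPKM (0.15). Without the pseudocount its log2 ratio was 0.15 with a counting half-width of 0.14, from about 835 and 894 fragments. TOMM20L, a relative of TOMM20, was 1.245 and 0.324 FPKM. By the FPKM that 1 fragment is worth in each library, these values are about 4 fragments and 1 fragment. The exact 95% interval of the ratio of normal to depleted then ran from 0.381 to 190 for 4 and 1 fragments, so this depth cannot tell whether TOMM20L differed.

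Of the channel and its small subunits, 4 of 5 were among the more abundant import genes, and TOMM40L was among the least. TOMM40, the pore itself, was 102 and 105 FPKM (0.03). TOMM7, which shapes the assembly of the complex and helps to keep the kinase PINK1 on the outer membrane, had the highest level of all at 258 and 230 FPKM (-0.16). TOMM6, another small subunit at the pore, was 116 and 118 FPKM (0.03), and TOMM5 was 73.6 and 83.0 FPKM (0.17). TOMM7 was therefore lower and TOMM5 higher on the depleted diet, and both ratios stayed inside their counting half-widths of 0.17 and 0.22. TOMM7 exceeded TOMM40 2.52 times on the normal diet and by less on the depleted diet, while TOMM6 stood at 1.14 and 1.13 times and TOMM5 at 0.720 and 0.792 times. TOMM40L, a relative of TOMM40, was only 1.41 and 1.07 FPKM (-0.22), about 28 and 20 fragments.

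In the TIM23 complex 5 of 7 genes (71.4%) were higher on the depleted diet, against 49.4% of all features tested, with a median log2 ratio of 0.09. With 7 genes, this count says nothing particular about the complex. TIMM23, the central channel protein, was 26.2 and 31.7 FPKM (0.27), the highest ratio of the 23 genes. TIMM23 lay just above the central 90% of log2 ratios of features with a mean of 20 to 50 FPKM, which ended at 0.27, as 5.02% of features do at their own level. Its near-copy TIMM23B was 6.44 and 4.63 FPKM (-0.40), the lowest ratio of the 23 and the 1 gene past the 5-to-4 ratio. TIMM23B lay just below the central 90% for its level (5 to 10 FPKM, from -0.40), again as 5.02% of features do, and rested on about 48 and 33 fragments. Its ratio without the pseudocount, -0.48, was inside the counting half-width of 0.64.

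The 2 copies differed in opposite directions between the libraries, and part of their coding sequence cannot tell their reads apart. In GENCODE release 29 the coding sequences of TIMM23 (627 bases) and TIMM23B (564 bases) run together for 514 bases with 10 differences, an identity of 98.1%, and end differently after that. Of 578 windows of 50 bases in the TIMM23 coding sequence, 104 occur letter for letter in that of TIMM23B. The first 90 coding bases are shown to let the closeness be seen, with the 3 positions that differ in capitals.
TIMM23: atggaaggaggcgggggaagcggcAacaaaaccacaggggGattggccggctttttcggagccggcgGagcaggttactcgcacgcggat
TIMM23B: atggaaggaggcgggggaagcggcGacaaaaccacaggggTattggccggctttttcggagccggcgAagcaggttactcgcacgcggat
Taken as a sum, TIMM23 and TIMM23B were 32.6 and 36.3 FPKM (log2 ratio 0.15). The ratio of such a sum lies between those of the 2 copies by construction, so it says nothing about how their reads were assigned. Whether reads were split between the copies in a different way in each library was not tested.

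The other genes of the TIM23 complex differed by less than their counting error. TIMM17A and TIMM17B are alternative forms of the subunit that lines the channel beside TIMM23. TIMM17A was 36.9 and 39.3 FPKM (0.09), and TIMM17B was 46.8 and 43.9 FPKM (-0.09). TIMM17B was thus the higher form in both libraries, by 1.27 times on the normal diet and 1.12 times on the depleted diet, and the sum of both forms was 83.7 and 83.2 FPKM. TIMM50, the receptor that takes presequences over from TOM, was 23.1 and 23.3 FPKM (0.01). TIMM44, which ties the motor to the channel, was 11.0 and 12.9 FPKM (0.20), with a counting half-width of 0.31. TIMM21, which links TIM23 to TOM and to the respiratory chain, was 5.91 and 7.04 FPKM (0.22), with a half-width of 0.35. TIMM23, TIMM44 and TIMM21 were each higher in the depleted-diet library, and of these only TIMM23 passed its counting error.

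The small TIM chaperones work as hexamers of TIMM9 with TIMM10 and of TIMM8A with TIMM13, and the members of a hexamer did not have equal RNA levels. TIMM9 was 14.8 and 17.5 FPKM (0.23), and TIMM10 was 46.6 and 47.6 FPKM (0.03). TIMM10 was therefore 3.14 times the level of TIMM9 on the normal diet and 2.72 times on the depleted diet. TIMM8A, whose loss causes a human deafness and dystonia syndrome, was 11.8 and 14.2 FPKM (0.26). TIMM13 was 25.4 and 23.7 FPKM (-0.09), which put it at 2.16 and 1.67 times the level of TIMM8A. TIMM8B, a close relative of TIMM8A, was the highest of the 5 at 78.2 and 73.5 FPKM (-0.09). Beside TIMM8B, TIMM13 was the less abundant gene, at 0.324 and 0.323 times its level. The less abundant gene of each pair, TIMM9 or TIMM8A, was the one with the larger ratio, but both ratios were inside their counting half-widths of 0.57 and 0.36. In RefSeq 13 of the 24 import genes overlap another entry. Among them are TIMM9 with TOMM20L and KIAA0586, TIMM17B with PQBP1, TIMM13 with TMPRSS9 and TIMM23B with TIMM23B-AGAP6. TIMM22 overlaps ABR, which had a mean of 44.3 FPKM. The kit was stranded, but the sources used here give no strand setting. How reads from a shared stretch were assigned was not tested.

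TIMM22, the channel of the carrier pathway, was 5.79 and 6.46 FPKM (0.14), about a level with TIMM21. TIMM10B, the small TIM that docks the chaperones to TIM22, was 26.1 and 24.7 FPKM (-0.08). TIMM29, a further subunit, is listed as C19orf52 and so falls outside the naming rule; it was 6.38 and 6.64 FPKM (0.05). TIMM23 was 4.52 times the level of TIMM22 on the normal diet and 4.91 times on the depleted diet.

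Levels separated the genes far more than the diets did. The order from the top was TOMM7, then TOMM20, TOMM6 and TOMM40 at 102 to 119 FPKM, then TOMM5 and TIMM8B. Neighbours in this order changed places between libraries: TOMM20 was above TOMM6 on the normal diet and below it on the depleted diet. TIMM8B and TOMM5 did the same. The 10 TOMM genes summed to 804 and 791 FPKM and the 14 TIMM genes to 365 and 370 FPKM. Of 9 TOMM genes compared 5 were higher (median 0.03), and of 14 TIMM genes 9 were higher (median 0.06). Over all features tested 49.4% were higher. The TOMM median was -0.01 when TOMM20L was also counted.

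Relatives with low levels were little expressed beside the main forms. TOMM40 was 72.7 times the level of TOMM40L on the normal diet and 97.7 times on the depleted diet, and their coding sequences were 71.5% identical. TOMM20 and TOMM20L were 63.7% identical, TIMM17A and TIMM17B 70.7%, and TIMM8A and TIMM8B 59.5%. None of these 4 pairs shared a 50-base window of coding sequence, unlike TIMM23 and TIMM23B. RefSeq lists 23 pseudogenes of 9 of the genes, 6 of them of TOMM22 and 4 each of TOMM20 and TOMM40, and none has a row under its own symbol. Whether reads from them were counted with the parent genes was not tested.

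Partners of the translocases were compared in 9 lists of 65 genes, of which 64 passed the minimum mean. Of these, 40 (62.5%) were higher on the depleted diet, against 49.4% of all features tested. Each list holds few genes, many with ratios near 0, so a count of genes higher or lower gives no direction for a step of import. Motor and TIM23 partners were higher in 4 of 7 genes (median 0.02). DNAJC19, a J protein of the motor, was 14.3 and 16.9 FPKM (0.22), and GRPEL2, a nucleotide exchange factor of the matrix HSP70, was 8.79 and 8.19 FPKM (-0.09). Outer membrane sorting and assembly genes were higher in 2 of 6 (median -0.02, and 0.03 with a common sum), from MTCH1, a membrane protein insertase (95.3 and 87.3 FPKM, -0.12), to MTX1, a metaxin (17.0 and 18.2 FPKM, 0.09). These lists resembled the translocases in their small ratios.

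The lists of genes that act on arriving proteins are as small, and their counts give no direction for a step of import either. Over all features tested 49.4% were higher and 50.6% lower. Past the 5-to-4 ratio were 6.94% upwards and 7.15% downwards. The relay that forms disulfide bonds in the small TIMs was lower in 3 of 3 genes (median -0.06), from CHCHD4, the oxidase itself (9.93 and 9.50 FPKM, -0.06), to GFER, which reoxidises it (11.1 and 9.63 FPKM, -0.19). Presequence processing was lower in 4 of 6 genes (median -0.13). IMMP1L, a subunit of the inner membrane peptidase, was 12.7 and 9.80 FPKM (-0.35), past the 5-to-4 ratio but not with a common sum (-0.30), and XPNPEP3, an aminopeptidase, was 3.25 and 3.43 FPKM (0.06). Carrier partner and insertion genes were higher in 3 of 3 (median 0.02), between OXA1L, an insertase (33.7 and 33.9 FPKM, 0.01), and TIMMDC1, an assembly factor of complex I (39.5 and 43.9 FPKM, 0.15). MICOS, which shapes the cristae, was higher in 4 of 7 genes (median 0.03) but held the widest range. Its subunit CHCHD6 was 12.9 and 8.23 FPKM (-0.59), and APOO was 4.60 and 6.30 FPKM (0.38). Matrix chaperones and inner membrane proteases were higher in 9 of 13 genes (median 0.04), from LONP1, a protease (27.8 and 25.5 FPKM, -0.12), to HSPE1, the HSP10 chaperonin (159 and 182 FPKM, 0.20).

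Cytosolic chaperones that deliver precursors were the list with the highest median, and it lay above the medians of the translocase roles in these libraries. All 7 were higher on the depleted diet (median 0.34), against 49.4% of all features, and 4 were past the 5-to-4 ratio upwards, against 6.94%. DNAJA1, an HSP40 partner, was 101 and 166 FPKM (0.71), and HSPA8, the constitutive HSP70, was 769 and 1118 FPKM (0.54). STIP1, which links HSP70 to HSP90, was 107 and 150 FPKM (0.48), and HSP90AA1 was 260 and 331 FPKM (0.34). Higher chaperones were already known from these libraries, so this list is no independent evidence. TOMM34 (0.15) and TOMM70A (0.03), which meet these chaperones at the outer membrane, had ratios below the median of that list.

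Regulators of mitochondrial biogenesis were higher in 9 of 12 genes (median 0.14). MYC, a growth factor-induced transcription factor, was 76.1 and 106 FPKM (0.47), and PPRC1, a coactivator of the PGC-1 family, was 16.6 and 21.7 FPKM (0.36). GABPA, the DNA-binding ETS subunit of NRF2/GABP, was 7.92 and 7.03 FPKM (-0.15).

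Other mitochondrial families gave medians on either side of 0, depending on the scaling. Over all features tested, the share higher on the depleted diet was 49.4%. Mitochondrial ribosomal proteins were higher in 37 of 79 genes (median -0.01, and 0.04 with a common sum) and SLC25 carriers, the main clients of TIM22, in 14 of 35 (median -0.02, and 0.01 with a common sum). Nuclear-encoded subunits of the respiratory chain were higher in 24 of 79 (median -0.06, and -0.009 with a common sum). The import genes were higher in 14 of 23 (median 0.03, and 0.08 with a common sum). That scaling moved the median over all features tested from -0.003 to 0.04, so most of these shifts are shared by all features. Past the 5-to-4 ratio either way stood 4.35% of the import genes, 7.59% of the ribosomal proteins, 11.4% of the carriers and 3.80% of the respiratory subunits, against 14.1% of all features. None of these differences between families was tested, since each library stands alone.

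Promoter sequences of RefSeq (GRCh38.p14, while the values were made on hg19) were matched by symbol for 22 of the 24 genes; TIMM8B and TOMM5 had no entry. Each covers 250 bases before and 50 after the gene's start. Core letters of 4 factors known to act on nuclear genes for mitochondrial proteins were searched on both strands, and no match of one factor overlapped that of another. The ETS core CCGGAAG, which GABPA and its relatives bind, was in 10 of 22 promoters (45.5%). It was in 17.4% of the 13348 promoters of features tested and in 10.3% of all 35116 promoters. TIMM23 and its near-copy TIMM23B are counted separately among the 10. Their matches at -48 and -42 from the gene's start have nearly the same surrounding letters, so these promoters are not independent. The NRF1 core GCATGCGC was in 3 (13.6%, against 4.79% and 3.05%), in TIMM9, TIMM10B and TOMM7. The YY1 core AAGATGG was in 3 (13.6%, against 7.26% and 5.84%), and the E-box CACGTG, which MYC and others bind, in 3 (13.6%, against 9.36% and 7.26%). These counts describe letters, not binding, and the choice of letters was made with the values known.

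Of the 10 promoters with the ETS core, 9 held a match that began no more than 60 bases before the start of the gene or after it, and 5 held 2 matches. The match nearest the start of each is shown so that the shared letters and their surroundings can be compared, 5′ to 3′ on the gene's strand in GRCh38.p14. Capitals mark the core, which reads CTTCCGG where it lies on the opposite strand.
TOMM20 at chr1:235128843-235128869, minus strand: ttgactgggaCCGGAAGtggcgtgtgc
TOMM22 at chr22:38681948-38681974, plus strand: ctcctttccgCTTCCGGtgtcccctac
TOMM34 at chr20:44960385-44960411, minus strand: gcgcttgcgcCCGGAAGgtgtgccgca
TOMM70A at chr3:100401092-100401118, minus strand: atgccctgggCTTCCGGtgacctctgg
TOMM6 at chr6:41787604-41787630, plus strand: ccggtagcagCCGGAAGtgccagaccg
TIMM10 at chr11:57530751-57530777, minus strand: gactttcctcCCGGAAGtaacccacgt
TIMM10B at chr11:6481446-6481472, plus strand: cgagaggttaCTTCCGGggcggcaccg
TIMM13 at chr19:2427580-2427606, minus strand: gggcggcccgCTTCCGGcgcagttagt
TIMM23 at chr10:45972488-45972514, plus strand: gaaccggcgcCCGGAAGgtcagcgtgt
TIMM23B at chr10:49942001-49942027, plus strand: gcgcttccggCTTCCGGggcgcacact
The 4 receptors and delivery factors with an entry above 1 FPKM all carried the core, and no gene of the TIM23 complex other than TIMM23 and TIMM23B did. The 10 genes with it had a median of 37.4 FPKM and a median log2 ratio of -0.01, with 5 higher on the depleted diet. The other 11 genes compared, without it, had a median of 16.1 FPKM and a median log2 ratio of 0.09, with 8 higher. The share higher over all features tested was 49.4%. Genes that were higher on the depleted diet were thus found both with and without the letters.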

How the data were processed

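RNA-seq of HT-29 tumours gave 1 library per diet. The authors deposited FPKM per gene symbol, per the file headers. The submitters' processing notes name Cuffdiff 2.2.1, TopHat2 2.1.1, SAMtools 0.1.18, Bowtie2 2.2.8 and the hg19 build, with no roles. Not given in the sources used here are the annotation, the strand setting and any removal of mouse reads, so reads of near-identical, overlapping or mouse genes could add to a value. The kit was stranded, per the labels' protocols.

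From the FPKM, log2((depleted + 1)/(normal + 1)) was computed for 12414 features with a mean of at least 1 FPKM, and features past a ratio of 5 to 4 (0.32 on the log2 scale) and past 2-fold were counted. No test was possible with 1 library per diet. Fragments per library came from the steps of FPKM times effective length in 467 and 488 genes with 1 transcript in GENCODE 29, the effective length being 190 or 200 bases below the full one. The worth of 1 fragment in FPKM, 1.04 times as large on the depleted diet, was read from 3525 low genes: 60.4% then gave whole-number ratios (tolerance 0.1%), against 1.11% at other steps. Counting ranges and intervals cover counting error only. Coding sequences were aligned with Biopython 1.88. The ratio, the filter and the fold thresholds were tested on simulated data with known folds. The fragment estimates, counting ranges, alignments and promoter searches were not. Every import gene could be named, as could the highest and the lowest partner of each list and partners past the 5-to-4 ratio whose mean reached 5 FPKM. The lowest partner of 1 list is not reported here. The members and lists were chosen with earlier results of these data known. Protein sequences were not analysed here. As alternatives, another pseudocount, filter, scaling and fold were tried.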

Additional observations from a re-analysis of the deposited data

How the results depend on the processing

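No paired analysis was possible because there is 1 library for either diet, which also leaves no replicate to omit. All 141 medians of the import genes, their roles, the partner lists and the 3 families moved by less than 0.1 on the log2 scale. The alternatives were those for pseudocount, filter and scaling and, for the import genes, the mean. Most medians were themselves smaller than 0.1, so this margin cannot show that a sign held. The median of the TOM receptors and delivery factors ran from -0.05 to 0.04 and changed sign in 2 of 7 alternatives. Medians of the mitochondrial ribosomal proteins (2 of 7), the TOMM genes, the TIM23 motor partners, outer membrane sorting and the SLC25 carriers (1 of 7 each) also changed sign. Of 46 counts 40 stayed within 1.5 times. Past the 5-to-4 ratio downwards, against 1 gene, were 2 with a pseudocount of 0.1 FPKM, 0 with 5 FPKM, 2 with no filter (TOMM20L enters), 2 with the threshold at a log2 ratio of 0.20 and 0 at 0.58. Upwards, 5 were past 0.20, against 0 past the 5-to-4 ratio. A lower fold or no filter lets more genes pass by construction. TIMM23B was at -0.25 with a pseudocount of 5 FPKM and TOMM40L at -0.36 with 0.1 FPKM; the other 158 of 160 single ratios kept their side of the 5-to-4 ratio. A common sum of FPKM raised the ratios, by up to 0.05 and by less for low genes, and among the import genes changed the sign of TOMM20 alone. Depth limits TIMM23B, TIMM9, TOMM40L and TOMM20L most.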
